A study of Mus musculus with 24 samples.

Results

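Collagen chain genes were followed in RNA sequencing libraries of microglia and astrocytes from mouse brain. The members were the protein-coding genes whose symbol is Col, a number, the letter a and a number. They numbered 44, among 53700 gene identifiers in the microglia tables and 55487 in the astrocyte tables, and were split into 11 fibrillar chains, 8 basement membrane chains (the Col4 chains, Col15a1 and Col18a1) and 25 others. The 24 libraries fell into 8 groups of 3, set by cell type, injection and Serpine2 genotype. Knockouts were adult Serpine2-/- mice and controls were littermates that kept 1 or 2 functional alleles, so that controls may include heterozygotes. Mice of either genotype had received saline or lipopolysaccharide (LPS), a part of the outer membrane of some bacteria that sets off innate immune responses. The groups were thus, for each cell type, saline control, saline knockout, LPS control and LPS knockout. All animals were perfused with buffered saline. Cortical tissue digested with papain gave the astrocytes. Microglia were taken from dounced whole brain after a Percoll step. Cells of both kinds were then caught on antibody-coated dishes (immunopanning). Cell type therefore went together with brain region and preparation, which cannot be told apart. Dose, time after injection, strain and the deleted part of Serpine2 were not given in the sources used here.

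Collagens are secreted proteins of the extracellular matrix in which chains wind around each other as a triple helix. Fibrillar collagens assemble into tension-bearing fibres, type IV collagen forms the network of basement membranes, and other collagens link fibrils, form beaded filaments or span the cell membrane. In brain, most fibrillar collagen lies in meninges and around larger vessels, while basement membranes surround capillaries and are touched by the end-feet of astrocytes. Serpine2 encodes protease nexin 1, a secreted inhibitor of serine proteases such as thrombin and plasminogen activators.

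Upstream sequences are shown for the chains whose astrocyte levels carried the LPS result. In the RefSeq table for GRCm38.p6, 35 of the 44 members had an upstream window of 250 bases. Those printed run 5′ to 3′ on the gene's strand and hold only bases outside annotated exons. Capitals mark CCAAT or GGGCGG on either strand. Col5a3 lies at chr9:20815068-20815317 on the minus strand, directly before the gene's start. Col11a2 lies at chr17:34038888-34039137 on the plus strand, also directly before the RefSeq start. Col1a2 lies at chr6:4505370-4505492 on the plus strand, between exons of longer GENCODE models. The fourth sequence is the stretch where the first exons of Col4a1 (minus strand) and Col4a2 (plus strand) overlap by 22 bases, chr8:11312805-11312826, shown on the plus strand.
Col5a3: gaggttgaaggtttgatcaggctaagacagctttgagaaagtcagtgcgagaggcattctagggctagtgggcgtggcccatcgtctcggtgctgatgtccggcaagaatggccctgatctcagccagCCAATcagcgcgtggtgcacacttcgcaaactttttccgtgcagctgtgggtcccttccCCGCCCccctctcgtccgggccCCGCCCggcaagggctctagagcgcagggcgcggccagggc
Col11a2: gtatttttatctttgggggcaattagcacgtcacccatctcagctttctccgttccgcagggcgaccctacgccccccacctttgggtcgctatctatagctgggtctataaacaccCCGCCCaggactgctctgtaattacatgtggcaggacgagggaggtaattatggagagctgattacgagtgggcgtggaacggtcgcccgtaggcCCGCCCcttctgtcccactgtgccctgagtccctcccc
Col1a2: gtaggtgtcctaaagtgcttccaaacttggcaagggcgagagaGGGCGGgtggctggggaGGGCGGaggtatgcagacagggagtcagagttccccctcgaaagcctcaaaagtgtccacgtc
Col4a1 and Col4a2 shared bases: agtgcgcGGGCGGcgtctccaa

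GGGCGG, the core of the GC box, was found on either strand in 22 of the 38 windows of members (57.9%) and in 32.7% of all 32851 windows of the table. CCAAT was found in 34.2% of the members' windows and in 33.8% of all windows. TATAAA was found in 13.2% of members' windows against 12.4% of all. TGANTCA (an AP-1 motif) and TTCNNNGAA (a STAT motif) were found in 1 and 2 of the members' windows, and in 6.75% and 7.02% of all windows. These are matches of letters in a fixed window and no measure of binding. Several members neighbour each other in the GRCm38 annotation. The pairs Col4a1 and Col4a2, Col4a3 and Col4a4 (71 bp apart) and Col4a5 and Col4a6 (1308 bp apart) stand head to head, as is known for the type IV genes. Col6a1 and Col6a2 lie 85161 bp apart, and Col3a1 and Col5a2 lie 24614 bp apart. Reads over exons shared by Col4a1 and Col4a2, or by 1 of the 13 members whose exons overlap another gene, cannot be assigned surely, since no strand setting was given.

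Libraries held 4506142 to 13621776 gene counts in microglia and 10944765 to 25135252 in astrocytes. Levels are given as CPM, gene counts relative to the library total scaled by TMM factors within a cell type. Of uniquely placed reads, 64.6% to 76.98% fell outside annotated exons in microglia and 20.5% to 26.9% in astrocytes. Mitochondrial genes and a ribosomal RNA gene took 44.3% to 64.2% of astrocyte gene counts and 2.45% to 6.003% of microglia gene counts. Serpine2 checked the genotype labels: it ran from 78.2 to 169 CPM in the 6 control and 16.4 to 22.2 in the 6 knockout astrocyte libraries, and from 46.6 to 96.5 and 16.9 to 20.7 CPM in microglia. In 23 of 24 libraries Xist and Ddx3y were in keeping with the labelled sex. The exception was microglia LPS control 1, labelled female, with 73 Xist and 251 Ddx3y counts. Results without it are also given for the chains called in microglia after LPS and for the genotype comparison over both injections. The same was done for the difference in LPS response between cell types, and other microglia results include it. The 8 astrocyte markers summed to 14176 to 21370 CPM in astrocyte libraries and the 8 microglia markers to 1415 to 5077 CPM in microglia libraries. Microglia libraries also held 1875 to 2867 summed CPM of 8 neuron markers and 1375 to 4204 of 7 oligodendrocyte markers. In astrocyte libraries the same lists summed to 58.6 to 181 and 1895 to 5066 CPM. In such bulk samples fewer cells of a type and less RNA per cell cannot be told apart.

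**Figure D1:**
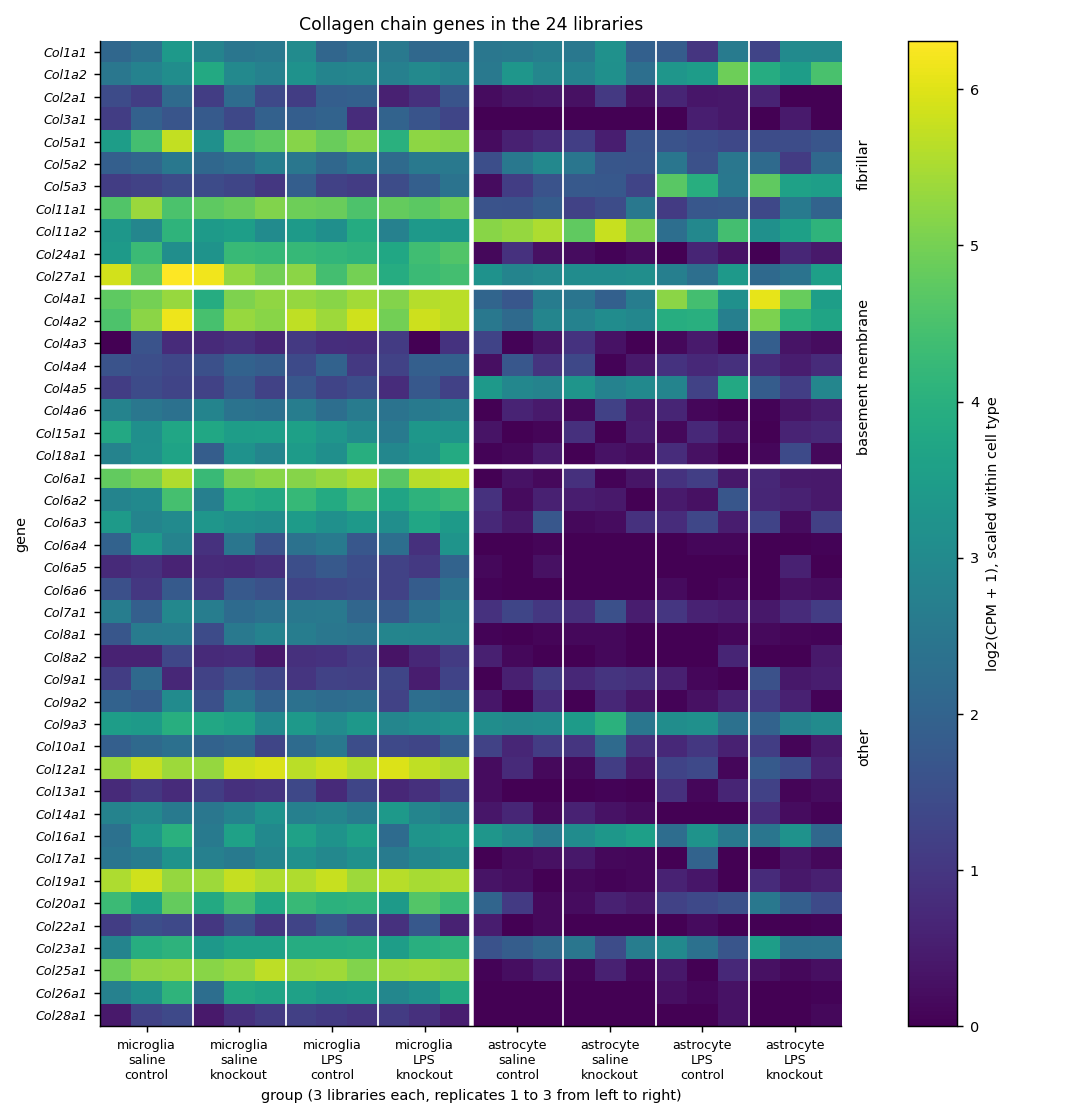
Level of each of the 44 collagen chain genes (rows, by class) in each of the 24 libraries (columns, 3 per group), coloured by log2(CPM + 1) scaled within cell type, so that colours compare libraries of one cell type. Microglia columns are filled across all 3 classes, while in astrocytes a few rows stand out, led by Col11a2 in saline and by Col4a1, Col4a2, Col5a3 and Col1a2 in LPS.

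In saline controls, with all 24 libraries scaled together, 21 of the 44 members averaged at least 1 CPM in astrocytes and 11 at least 5 CPM, and in microglia these counts were 36 and 19. All members summed to 234 ± 15.1 joint CPM in astrocytes and 322 ± 61.9 in microglia (SD, n = 3 each). Scaling bears on such counts: within each cell type they were 18 and 6 in astrocytes and 40 and 25 in microglia. Col26a1, Col28a1 and Col3a1 had no read in any of the 3 saline control astrocyte libraries. Fibrillar chains made up 61.0% ± 5.06 of astrocyte collagen CPM (SD, n = 3), basement membrane chains 16.4% ± 2.02 and other chains 22.6% ± 3.41. In microglia the same shares were 28.1% ± 2.37, 18.8% ± 1.68 and 53.1% ± 3.69. Most of the astrocyte fibrillar CPM came from 1 gene, Col11a2.

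Col11a2 encodes a chain of type XI collagen, a minor fibrillar collagen known from cartilage. Its level was 35.7, 39.0 and 45.7 CPM in astrocytes of saline controls, and 26.5, 53.8 and 33.1 CPM in those of saline knockouts. Per kb of exon and with all 24 libraries scaled together, Col11a2 stood at 12.3 CPM per kb, percentile 87.0 of 21878 protein-coding genes in that group. Next in order per kb were Col9a3 (3.97), a chain of the fibril-associated type IX collagen, Col4a5 (2.33), Col16a1 (2.21), Col1a1 (1.60), Col4a2 (1.56), Col1a2 (1.15), Col27a1 (1.15) and Col4a1 (1.01 CPM per kb). Below Col11a2 and Col9a3 these levels lay close to each other, and the median over all protein-coding genes was 1.01 CPM per kb.

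Microglia libraries of saline controls showed another order on the same scale. Col6a1, a chain of the beaded filament type VI, led with 4.68 CPM per kb, followed by Col19a1 (4.10), a fibril-associated chain, Col4a2 (3.79), Col4a1 (2.53), Col27a1 (2.45), Col20a1 (2.19), Col5a1 (1.89), Col9a3 (1.77), Col12a1 (1.75) and Col25a1 (1.61), a transmembrane collagen found in neurons and in amyloid plaques. These were the 10 of 44 members above the median of protein-coding genes in that group, 1.45 CPM per kb. Col19a1 kept a narrow range, 38.7 to 57.3 CPM over the 6 saline libraries and 40.7 to 53.8 CPM over the 6 LPS libraries. Col12a1, a fibril-associated chain, ran from 38.9 to 61.0 and from 45.0 to 61.5 CPM. Col5a1, the main chain of type V collagen, ran more widely, from 7.99 to 51.9 CPM over the saline and from 15.2 to 36.7 CPM over the LPS libraries.

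The cell types were compared in saline controls with edgeR's quasi-likelihood test on all 24 libraries scaled together, with Benjamini-Hochberg adjustment over 24607 genes and calls at an adjusted p under 0.05. Of the 44 members 30 were called, 23 higher in microglia and 7 higher in astrocytes, beside 55.7% of all genes called (32.1% higher in microglia and 23.6% higher in astrocytes). The median difference over members was 1.57 on the log2 scale, microglia minus astrocytes, beside 0.38 over all genes. By class, 5 of 11 fibrillar, 5 of 8 basement membrane and 13 of 25 other chains were higher in microglia. Higher in astrocytes were 4 fibrillar chains, 1 basement membrane chain and 2 other chains.

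On the joint scale Col11a2 averaged 84.6 ± 9.68 CPM in astrocytes and 6.24 ± 2.69 in microglia (SD, n = 3 each), a log2 difference of -3.74 (SE 0.47, adjusted p = 3.79e-07 by edgeR). Col4a5, the X-linked type IV chain mutated in Alport syndrome, averaged 15.7 ± 4.06 CPM in astrocytes and 0.87 ± 0.17 in microglia, a log2 difference of -4.17 (SE 0.66, adjusted p = 1.05e-05 by edgeR). Col1a1, Col1a2 and Col5a2, which build types I and V, were also lower in microglia, with log2 differences of -1.65, -1.98 and -2.12. Col16a1 (-1.42) and Col9a3 (-1.16) completed the 7. The call of Col1a1 was lost without microglia saline control 1 or 2 (adjusted p up to 0.0825), and that of Col16a1 without saline control 1 of either cell type (up to 0.0755). Col9a3 lost it without microglia saline control 1 or 2, with RLE factors (adjusted p = 0.0671) and with DESeq2 (adjusted p = 0.0518).

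Among chains higher in microglia, Col19a1 averaged 28.2 ± 6.74 joint CPM against 0.31 ± 0.28 in astrocytes, a log2 difference of 6.44 (SE 0.57, adjusted p = 9.11e-10 by edgeR). Col6a1 differed by 6.34, Col25a1 by 5.47, Col12a1 by 5.25 and Col15a1 by 4.87, each on the log2 scale. Also higher were Col5a1 (4.08), Col17a1 (3.82), Col18a1 (3.79), Col24a1 (3.08), Col6a2 (2.67), Col14a1 (2.28) and Col11a1 (1.88). Col6a4, Col6a6 and Col8a1 were called too, with 1, 1 and 2 reads over the 3 astrocyte libraries, and no fold is given for them. For the chains without a read in saline control astrocytes, the difference is a bound against 3 counts over the group. Col26a1 was at least 56.1-fold higher in microglia, Col3a1, the chain of type III collagen, at least 11.9-fold and Col28a1 at least 6.26-fold. Col4a1, Col4a2, Col27a1, Col20a1 and Col4a6 were called higher in microglia too, but each lost the call when single saline control libraries were left out. Those libraries were microglia 2 or 3 or astrocyte 1 or 2 for Col4a1 (adjusted p up to 0.115), microglia 3 or astrocyte 2 for Col4a2 (up to 0.12), microglia 1 or 3 or astrocyte 2 or 3 for Col27a1 (up to 0.15) and microglia 3 for Col20a1 (0.0546). For Col4a6 it was any of the 6 but astrocyte 2 (up to 0.146). The shares of reads outside exons and the neuron markers given above moved with cell type. Other summed markers, scaled within cell type, did too in saline controls (microglia against astrocytes). They were 47.2 to 65.1 against 1.48 to 2.055 CPM for choroid plexus and 43.2 to 68.8 against 4.29 to 5.95 for border macrophages. Endothelial markers summed to 28.9 to 30.8 against 4.08 to 10.5 CPM, and mural ones to 30.3 to 63.7 against 99.97 to 114. Joint scaling multiplies microglia values by 0.57 to 0.63 and astrocyte values by 2.08 to 2.22. The part of these in the differences was not tested.

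Few collagen chains passed the test between LPS and saline. In astrocytes, over both genotypes, Col5a3, Col4a1, Col4a2 and Col1a2 rose and Col11a2 fell, by 2.47- to 10.0-fold. In microglia Col6a5 rose and Col27a1 fell, and neither call held under all alternatives. The remaining 25 members tested in astrocytes and 41 in microglia did not pass the test. In astrocytes 30 of the 44 members had enough counts to be tested, and the other 14 did not pass the filter on low counts. The 5 called stood beside 6.9% of all 18188 genes called (4.98% higher, 1.92% lower), and the median log2 change was 0.10 over the tested members and 0.01 over all genes. In microglia 43 members were tested, the 2 called stood beside 2.7% of all 22230 genes called (2.19% higher, 0.513% lower), and the median log2 change was 0.02 over the members and -0.03 over all genes.

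**Figure D2:**
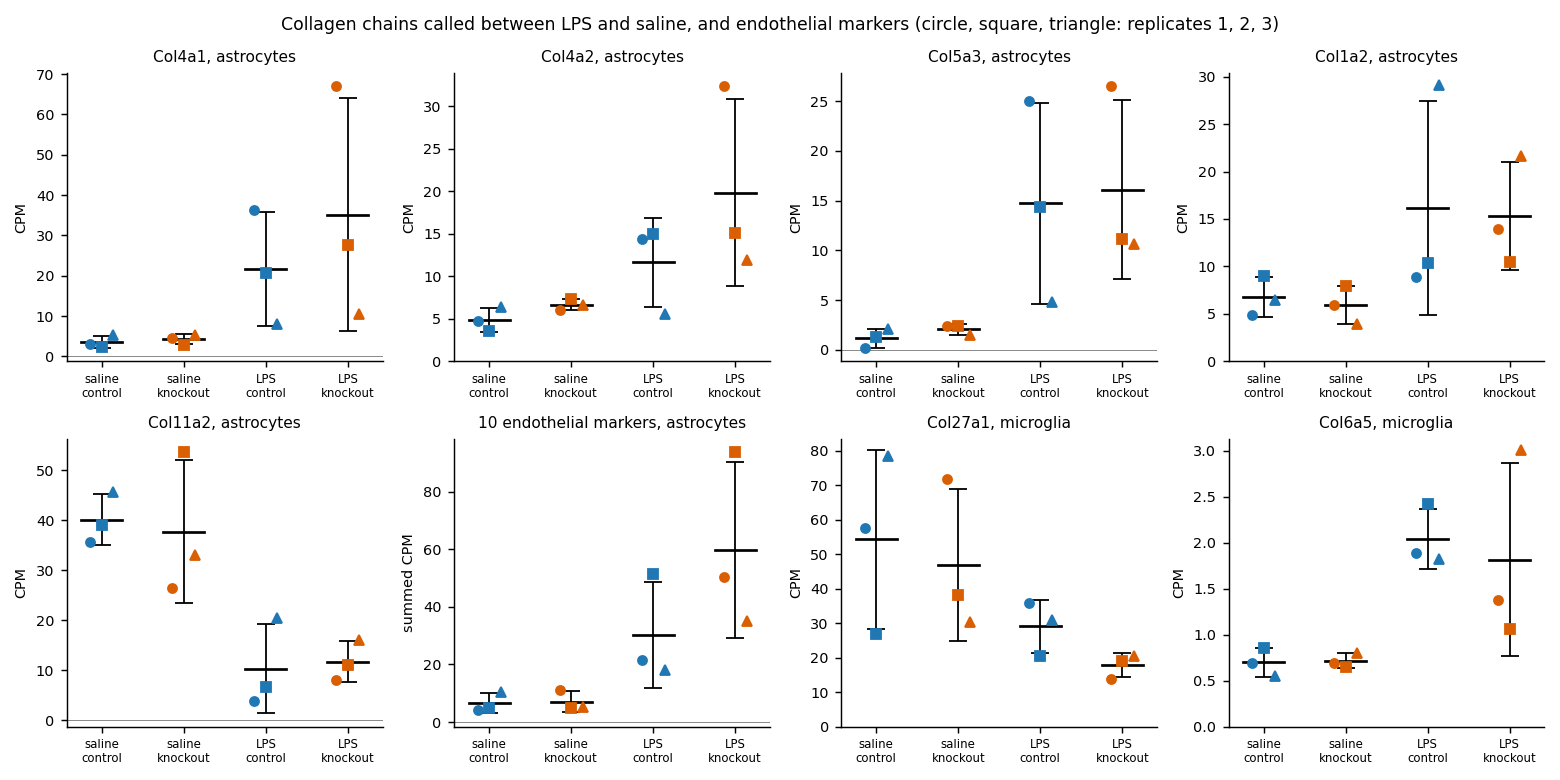
CPM per library (points; circle, square and triangle are replicates 1, 2 and 3) with group mean and SD (bars) for the 5 chains called in astrocytes, the summed CPM of 10 endothelial markers in the same astrocyte libraries, and the 2 chains called in microglia. Col4a1, Col5a3, Col11a2 and the low Col6a5 have no overlap between the 6 saline and 6 LPS libraries, while Col4a2, Col1a2 and Col27a1 overlap.

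Type IV collagen of most basement membranes is built from the chains of Col4a1 and Col4a2. Astrocyte Col4a1 stood at 3.16, 2.28 and 5.30 CPM in saline controls and at 4.48, 2.83 and 5.38 CPM in saline knockouts. After LPS it stood at 36.3, 20.6 and 7.998 CPM in controls and at 67.0, 27.7 and 10.6 CPM in knockouts. All 6 LPS libraries were above all 6 saline libraries, with the first library of each genotype highest and the third lowest. In both genotypes the third LPS astrocyte library was female and the first and second were male. What sets the third LPS libraries apart here and below therefore cannot be told apart from sex. The log2 change was 2.83 (SE 0.46), a 7.11-fold rise with an adjusted p of 0.00204 by edgeR.

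Astrocyte Col4a2 moved less. After saline it was at 4.75, 3.56 and 6.38 CPM in controls and at 6.01, 7.33 and 6.60 CPM in knockouts. After LPS these became 14.4, 14.9 and 5.61 CPM and 32.4, 15.1 and 11.9 CPM. The third LPS control library lay within the saline range and the other 5 LPS libraries lay above it. Its log2 change was 1.42 (SE 0.30, adjusted p = 0.0077 by edgeR). No other basement membrane chain passed the test in astrocytes: Col4a5 changed by -0.59 (SE 0.44), Col15a1 by 0.76 (SE 1.10) and Col4a6 by -0.88 (SE 1.03), and Col18a1, whose end fragment is endostatin, was too low to test.

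Col5a3 encodes a less common chain of type V collagen. It had 0.15, 1.23 and 2.06 CPM in saline control astrocytes and 2.37, 2.35 and 1.44 CPM in saline knockouts. After LPS the values were 24.99, 14.4 and 4.78 CPM in controls and 26.5, 11.1 and 10.6 CPM in knockouts. The groups did not overlap, and the third LPS control library was again the lowest of the 6. The log2 change was 3.32 (SE 0.49, adjusted p = 0.000884 by edgeR), the smallest adjusted p of any member in that comparison. The other type V chains did not pass: Col5a1 changed by 1.30 (SE 0.51, adjusted p = 0.144) and Col5a2 by -0.19 (SE 0.41).

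Col1a2 encodes the second chain of type I collagen, the main collagen of connective tissue. After saline, control astrocytes had 4.90, 8.99 and 6.44 CPM and knockout astrocytes 5.91, 7.97 and 3.95 CPM. After LPS the controls had 8.91, 10.3 and 29.1 CPM and the knockouts 13.95, 10.4 and 21.6 CPM. The third LPS library of each genotype was the highest, the reverse of Col4a1, and 1 LPS control library lay within the saline range. The log2 change was 1.30 (SE 0.32, adjusted p = 0.0187 by edgeR). With replicate 3 of both LPS genotypes left out it was 0.78 with an adjusted p of 0.0849. The call was also lost, by less, without any 1 of 3 saline libraries, the replicate 1 and 3 controls and the replicate 3 knockout (adjusted p up to 0.0551).

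Col11a2 was the chain that fell. From the saline levels given above it went to 3.82, 6.66 and 20.5 CPM in LPS controls and to 8.06, 11.1 and 16.1 CPM in LPS knockouts. Every LPS library was below every saline library, and the third library of each genotype was nearest to the saline range. The log2 change was -1.83 (SE 0.34, adjusted p = 0.0038 by edgeR). Col11a1, its partner in type XI collagen, changed by 0.04 (SE 0.42). The calls of Col5a3, Col4a1, Col4a2 and Col11a2 held under all 21 alternatives of processing or samples that were run for this comparison. The edgeR tests of LPS over both genotypes took all LPS astrocyte libraries as independent, although same-numbered ones deviated together. Their p-values may thus be too small, and no alternative treated only the LPS libraries as pairs. This also bears on the difference in LPS response between cell types given below.

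In the controls alone the log2 changes in astrocytes were 3.69 for Col5a3, 2.601 for Col4a1, 1.25 for Col4a2, 1.24 for Col1a2 and -1.97 for Col11a2, and only Col5a3 was called (adjusted p = 0.0214 by edgeR), beside 0.929% of all genes (0.775% higher). In the knockouts alone they were 2.96, 3.06, 1.58, 1.36 and -1.69, and Col5a3 (adjusted p = 0.0426) and Col4a1 (adjusted p = 0.0344) were called by edgeR, beside 1.56% of all genes (1.35% higher). The direction of each chain was the same in both genotypes, and the difference between genotypes is given below. Each of these single-genotype calls was lost when some single libraries were left out. Col5a3 in controls was lost without LPS control 1 or 2 or saline control 1 or 2. In knockouts Col5a3 was lost without any library of the comparison but LPS knockout 3, and Col4a1 without LPS knockout 2 or any saline knockout library.

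**Figure D3:**
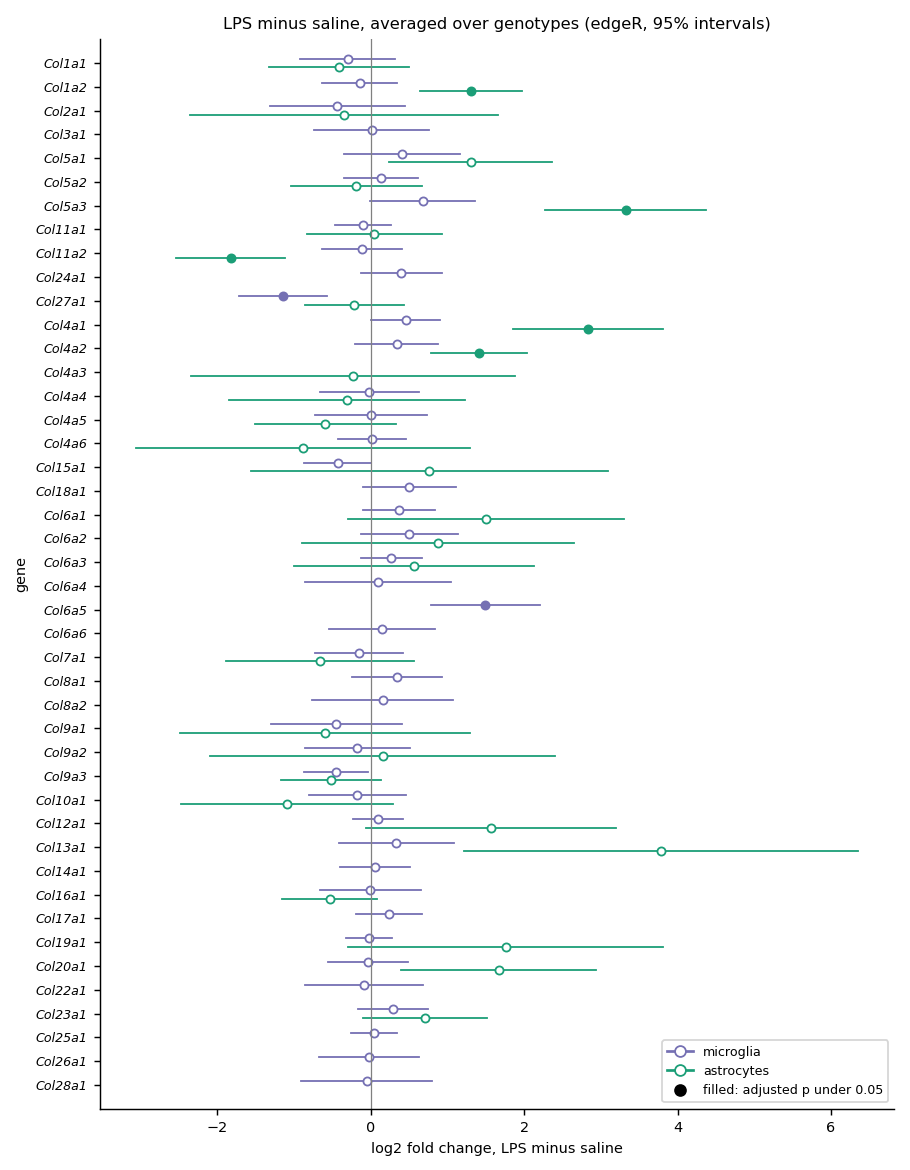
Log2 fold change of each tested member between LPS and saline, averaged over genotypes, in microglia and in astrocytes (points, with 95% intervals from edgeR; filled points had an adjusted p under 0.05). Astrocyte intervals are wider for most chains, and the filled points are Col1a2, Col5a3, Col11a2, Col4a1 and Col4a2 in astrocytes and Col27a1 and Col6a5 in microglia.

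Endothelial markers rose in the astrocyte libraries after LPS. Mural and vascular fibroblast markers rose in part, and their sums overlapped between saline and LPS. Of 10 endothelial markers 8 rose after LPS, beside 4.98% of all genes called higher and 1.92% lower, with a median log2 change of 3.09. Their summed level was 4.08 to 11.2 CPM in the 6 saline libraries and 17.98 to 93.9 CPM in the 6 LPS libraries. By library it was 21.5, 51.3 and 17.98 CPM in LPS controls and 50.3, 93.9 and 35.0 CPM in LPS knockouts. It was highest in the second library of each genotype, as was Col4a2 in controls. Col4a1, Col5a3 and knockout Col4a2 were highest in the first library and Col1a2 in the third. The endothelial sum, Col4a1, Col4a2 and Col5a3 were lowest in the third library of each genotype. The endothelial genes Pecam1 and Cdh5 averaged 4.90 and 3.35 CPM in LPS controls and 0.73 and 0.50 CPM in saline controls. Cldn5 was at 0 in 1 of the 6 saline libraries. In microglia 7 of the 10 endothelial markers could be tested after LPS and 0 passed, with a median log2 change of 0.24.

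The same shares of all genes stand beside the counts of the other marker lists. Of 10 mural markers 7 could be tested and 3 rose, with a median log2 change of 0.97. Their sum was 93.9 to 140 CPM in saline and 99.8 to 146 CPM in LPS libraries. Few genes carried these sums, since 3 to 5 of 10 mural and 1 of 10 vascular fibroblast markers reached 1 CPM in saline libraries. Vascular fibroblast markers summed to 7.03 to 16.1 and 8.96 to 19.7 CPM. Among them 3 of 10 could be tested and 1 rose, with a median log2 change of 3.31 over the 3. Dcn averaged 0.51 CPM in LPS controls and 0.80 in LPS knockouts, and Lum was at 0 in all 3 LPS knockout libraries. Neuron markers rose in 4 of 8, from 58.6 to 83.7 summed CPM in saline to 90.9 to 181 in LPS libraries. Oligodendrocyte markers fell in 2 of 7, with sums of 2307 to 4435 CPM in saline and 1895 to 5066 CPM in LPS libraries. Markers of oligodendrocyte precursors changed in 0 of 7, with sums of 63.2 to 173 and 57.5 to 346 CPM. Of 8 microglia markers 1 fell, but the median log2 change of the list was 0.57. Their sum was 125 to 184 CPM in saline libraries, 117, 269 and 313 CPM in LPS controls and 112, 405 and 231 CPM in LPS knockouts, so that 4 of 6 LPS libraries lay above the saline range. Border macrophage markers rose in 1 of 6, with sums of 2.23 to 7.39 and 2.84 to 9.91 CPM, and astrocyte markers in 1 of 8. The part of these cells in the collagen changes was not tested.

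The proportion between partner chains was also compared, with exact two-sided permutation tests of 6 saline against 6 LPS libraries on log2 ratios of CPM per kb. These 5 tests were chosen after the data had been seen, and p-values were adjusted over the 5. They take the 6 LPS libraries as independent, although same-numbered LPS astrocyte libraries of both genotypes deviated together. In astrocytes the Col4a1 to Col4a2 ratio was 0.34 to 0.74 in saline and 0.78 to 2.24 in LPS libraries, with medians of 0.63 and 1.43. The groups did not overlap (exact p = 0.00216, the smallest that 6 against 6 allows; adjusted p = 0.0108). The Col1a1 to Col1a2 ratio went the other way, from 1.02 to 1.94 in saline to 0.18 to 1.28 in LPS libraries (exact p = 0.00433, adjusted p = 0.0108), with the second LPS knockout library inside the saline range. With each such pair of LPS libraries averaged, 3 values against 6, both astrocyte ratios gave an exact p of 0.0238, the smallest that this allows. Col1a1 itself changed by -0.41 (SE 0.43) on the log2 scale. In microglia the medians of the type IV ratio were 0.75 and 0.77 (exact p = 0.591), those of the type I ratio 1.31 and 1.16 (exact p = 0.491), and those of Col6a1 to Col6a2 5.69 and 4.97 (exact p = 0.186). Effective lengths of transcripts can differ from exon lengths, so that a ratio compares libraries and not numbers of chains.

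**Figure D4:**
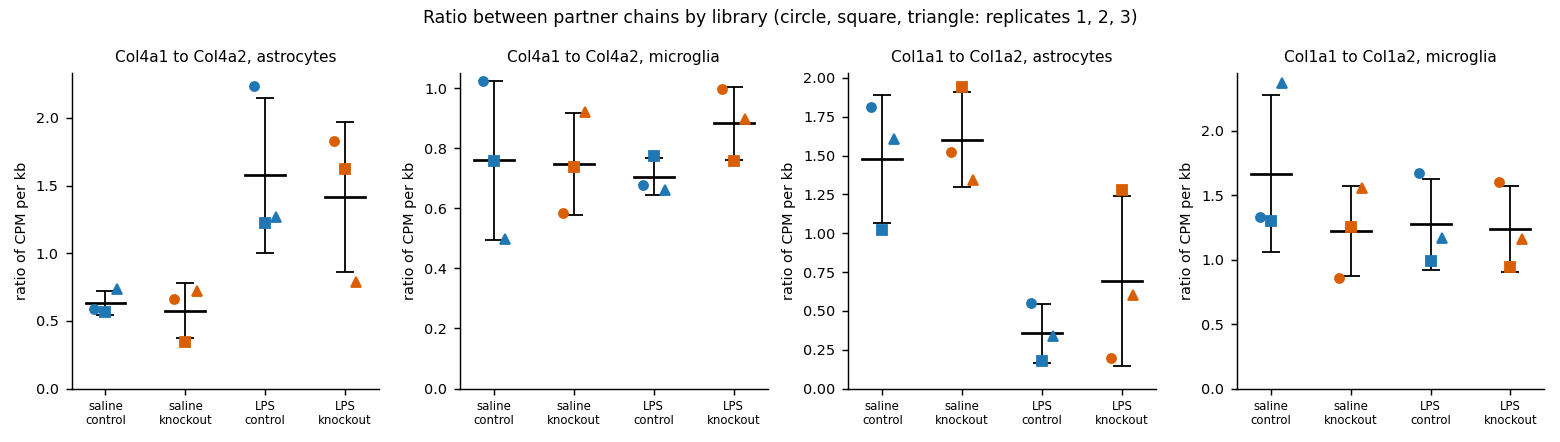
Ratio of CPM per kb between partner chains in each library (points; circle, square and triangle are replicates 1, 2 and 3) with group mean and SD (bars), for Col4a1 to Col4a2 and Col1a1 to Col1a2 in astrocytes and microglia. In astrocytes the type IV ratio is above all saline libraries in all 6 LPS libraries and the type I ratio is below them in 5, while the microglia groups overlap.

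In microglia Col27a1, a fibrillar chain known from cartilage, had 57.7, 26.9 and 78.4 CPM in saline controls and 71.9, 38.2 and 30.4 CPM in saline knockouts. After LPS it had 35.8, 20.5 and 30.8 CPM in controls and 13.9, 18.9 and 20.5 CPM in knockouts. The 3 LPS knockout libraries were below all saline libraries and the LPS control libraries overlapped them. The 8 microglia markers, of which 4 fell after LPS, summed in the same order of libraries to 5077, 2494 and 4313 CPM and to 5052, 2373 and 2108 CPM after saline. After LPS they summed to 2716, 1593 and 3009 CPM in controls and to 1415, 2471 and 1693 CPM in knockouts. The 3 saline libraries with the highest sums were also the 3 with most Col27a1, and the part of the markers in its fall was not tested. The log2 change was -1.15 (SE 0.27, adjusted p = 0.0307 by edgeR). Col6a5, a minor type VI chain, went from 0.54 to 0.86 CPM in saline to 1.06 to 3.01 CPM in LPS libraries, a log2 change of 1.49 (SE 0.33, adjusted p = 0.0225 by edgeR). It rested on 4 to 7 reads per saline library and 5 to 35 per LPS library. Without LPS control 1, whose transcripts went against its labelled sex, Col27a1 changed by -1.21 (adjusted p = 0.0388) and Col6a5 by 1.55 (adjusted p = 0.0418) by edgeR. Of the 6 LPS microglia libraries 4 were labelled female and 3 were female by transcripts, against 2 of 6 saline libraries by either. With sex from the labels as a covariate neither chain was called, with adjusted p of 0.184 for Col27a1 and 0.0804 for Col6a5.

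Both microglia calls also rested on single libraries. Col27a1 was lost without LPS control 2 or 3, LPS knockout 2, saline control 1 or saline knockout 1 (log2 change from -1.28 to -0.91 over the 12 left-out libraries). Col6a5 was lost without saline control 3, saline knockout 2, LPS control 2 or LPS knockout 3 (1.19 to 1.61). In controls alone and in knockouts alone edgeR called 0 members, beside 0.576% (0.526% higher, 0.0495% lower) and 1.14% (1.01% higher, 0.13% lower) of all genes. Unadjusted p was under 0.05 for 2 members in controls and 4 in knockouts, and DESeq2 called 0 and 1, the latter Col27a1. Col4a1 and Col4a2 in microglia changed by 0.46 (SE 0.21, adjusted p = 0.377) and 0.34 (SE 0.25), from levels of 14.1 to 39.1 and 21.4 to 69.8 CPM in saline libraries.

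The difference in LPS response between the cell types was tested directly, in a comparison added after the data had been seen. Astrocytes minus microglia, Col4a1 differed by 2.35 (SE 0.50, adjusted p = 0.00923), Col5a3 by 2.62 (SE 0.63, adjusted p = 0.0214) and Col11a2 by -1.75 (SE 0.44, adjusted p = 0.027), on the log2 scale by edgeR. These 3 of 44 members stood beside 2.6% of 24607 genes called (1.78% higher, 0.817% lower). Without microglia LPS control 1 they were 2.35, 2.85 and -1.77, with the same calls. Col4a1 kept the call under all 33 alternatives. Col5a3 lost it without LPS control astrocyte library 1 (adjusted p = 0.0503), and Col11a2 in 8 of the 33 (adjusted p up to 0.0601). Those were microglia saline control 1 or 2, saline knockout 3, LPS control 3, LPS knockout 2 or 3, and astrocyte saline knockout 2 or LPS control 2. The differences of Col4a2 (1.04, adjusted p = 0.197), Col1a2 (1.41, adjusted p = 0.0738) and Col27a1 (0.89, adjusted p = 0.308) did not pass by edgeR. That of Col6a5 was tested and did not pass either, and no estimate is given because it averaged only 0.07 CPM in astrocytes. DESeq2 called Col1a2, Col3a1 and Col19a1 as well.

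No collagen chain passed the test between Serpine2 knockouts and controls. With both injections averaged, edgeR called 0 of 43 members in microglia and 0 of 30 in astrocytes, beside 0.0045% and 0.0055% of all genes, which was Serpine2 itself. No member had an unadjusted p under 0.05 there, and DESeq2 called 0 in both. Without microglia LPS control 1 edgeR again called 0 in microglia. In saline alone and after LPS alone edgeR and DESeq2 again called 0 members in both cell types. Beside them edgeR called 0.0055% of all genes in astrocytes and 0.0% in microglia. Serpine2 itself was not called by edgeR in microglia, neither in saline (log2 difference -1.82, adjusted p = 0.191) nor after LPS (-1.90, adjusted p = 0.118). A missed call in these microglia comparisons therefore says little. Among members the only unadjusted p under 0.05 was that of astrocyte Col20a1 in saline. The median log2 difference of members, averaged over injections, was -0.10 in microglia and 0.16 in astrocytes, beside -0.01 and 0.00 over all genes.

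How far differences could be bounded varied with the level. In microglia the 95% interval lay within 1 log2 unit on either side of 0 for 30 of 43 members, and in astrocytes for 5 of 30. Microglia Col19a1 differed by -0.02 (SE 0.14), Col25a1 by 0.15 (SE 0.14) and Col12a1 by 0.14 (SE 0.15). Astrocyte Col11a2 differed by 0.06 (SE 0.33), Col4a1 by 0.47 (SE 0.43) and Col4a2 by 0.60 (SE 0.29, adjusted p = 1). Col4a4 and Col4a3 lie 2.59 and 2.73 Mb from Serpine2 on chromosome 1, and neither was called in any comparison of genotypes in which it was tested. Col4a3 was too low to test in microglia.

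**Figure D5:**
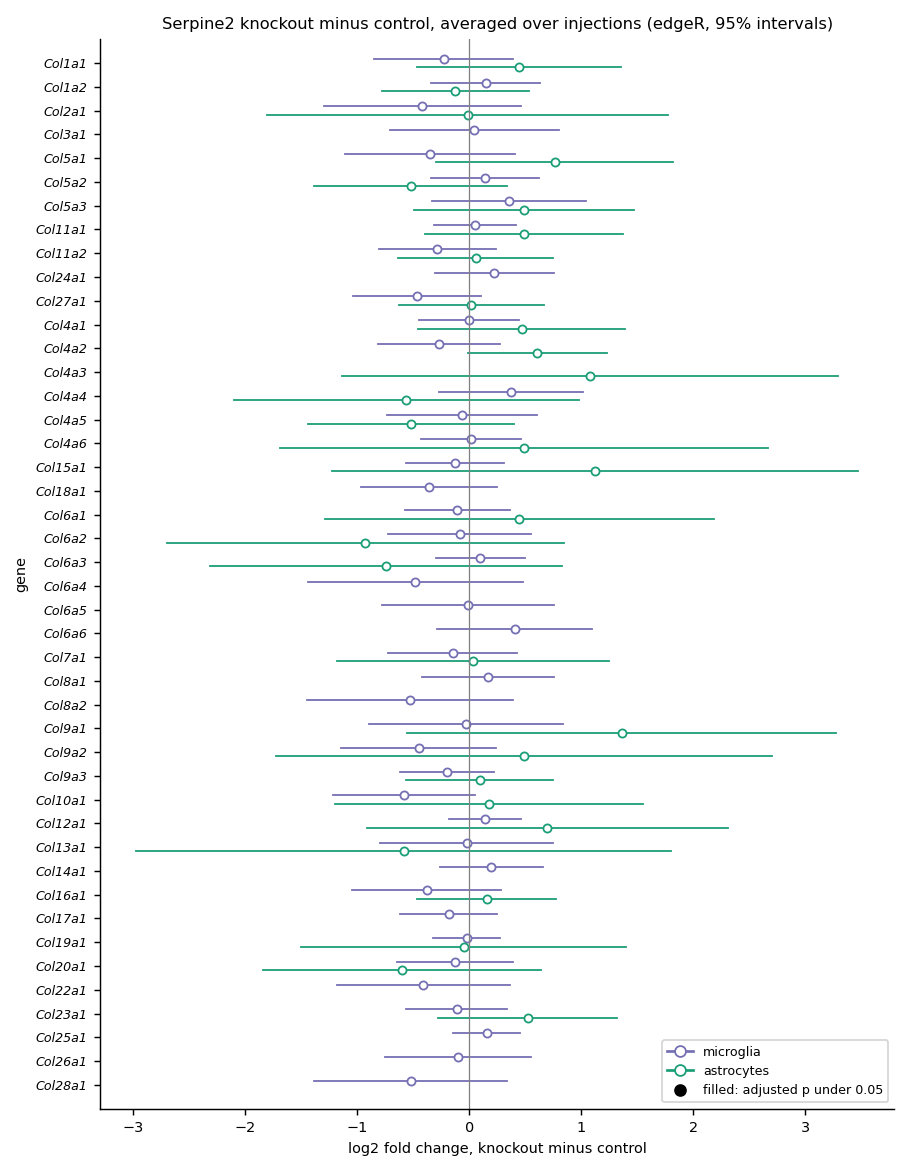
Log2 fold change of each tested member between Serpine2 knockouts and controls, averaged over injections, in microglia and in astrocytes (points, with 95% intervals from edgeR). No point is filled because no member had an adjusted p under 0.05, and astrocyte intervals are widest for chains with few counts.

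The LPS response did not differ detectably between genotypes in any member. edgeR and DESeq2 called 0 of 43 and 0 of 30, and 0 of all genes were called by edgeR in either cell type. The single unadjusted p under 0.05 was that of astrocyte Col20a1 (log2 difference 2.99, SE 1.20, adjusted p = 1 by edgeR). Col20a1, a fibril-associated chain, was at 3.16, 1.10 and 0.11 CPM after saline in controls, at 0.16, 0.49 and 0.36 CPM in knockouts, and at 1.37 to 4.79 CPM in the 6 LPS libraries. The first saline control library was the highest of the saline libraries and lay within the LPS range.

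Genes that make, hold or cut collagen were read from lists of 78 genes in all. In astrocytes the counts per list stand beside 4.98% of all genes called higher after LPS and 1.92% lower. In astrocytes after LPS, 1 of 18 chaperones and hydroxylases rose, Plod3, a lysyl hydroxylase, by 0.85 on the log2 scale. Of 10 tested genes of processing and cross-linking 2 rose, Bmp1 and Adamts14. Bmp1, which trims the C-terminal ends of procollagens, rose by 0.70. Adamts14, which trims the N-terminal ends, had at most 0.09 CPM in saline and at most 2.19 CPM in LPS libraries. Plod3 (adjusted p = 0.0468) and Bmp1 (adjusted p = 0.0476) passed narrowly by edgeR, and neither was called in controls alone or in knockouts alone. None of 9 tested collagen receptors (10 in the list) passed.

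Partners in the matrix moved in both directions. Of 12 tested basement membrane partners 3 rose and 1 fell. These were the laminin chains Lamb1 (2.83) and Lamc1 (0.84, adjusted p = 0.0431 by edgeR), the collagen-binding Sparc (1.31) and, lower, nidogen Nid2 (-0.99). Lamb1 was low, at 0.11 to 0.50 CPM in saline and 0.92 to 2.63 CPM in LPS libraries. Lamc1 was called in knockouts alone (1.52, adjusted p = 0.0382 by edgeR) and not in controls alone, where it averaged 38.3 CPM after saline and stood at 62.2, 40.7 and 25.6 CPM after LPS, above and below the saline libraries. Sparc averaged 165 ± 11.03 CPM in saline controls and 402 ± 163 in LPS controls (SD, n = 3), and its log2 change had an SE of 0.21 and an adjusted p of 0.00136 by edgeR. Of 7 tested fibril partners fibronectin Fn1 (2.78) and periostin Postn rose and tenascin C Tnc (-1.38) fell. Postn was at 0 to 0.87 CPM in saline and 0.33 to 11.6 CPM in LPS libraries. Tnc went from 29.8 to 47.7 CPM in the saline libraries to 8.02 to 25.2 CPM in the LPS libraries. Of 7 tested genes of collagen degradation Fap, Timp1 and Timp4 (0.998) rose and Timp3 (-0.82) fell, the Timp genes being inhibitors of matrix metalloproteinases. Timp1 stood at 0.14 to 1.33 CPM in saline libraries, at 56.0, 61.2 and 0.83 CPM in LPS controls and at 43.3, 54.9 and 13.5 CPM in LPS knockouts, so that the third LPS control library lay within the saline range. Fap had at most 0.05 CPM in saline and 0.15 to 4.38 CPM in LPS libraries. Median log2 changes of the tested genes were -0.01 for chaperones and hydroxylases, -0.22 for processing, 0.67 for basement membrane partners, 1.93 for fibril partners, 0.28 for receptors and 0.74 for degradation, beside 0.01 over all genes.

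In microglia after LPS 1 gene of these 6 lists passed, beside 2.7% of all genes called (2.19% higher, 0.513% lower). This was Mmp14, a membrane-bound collagenase, which rose by 2.09 (SE 0.26, adjusted p = 0.00021 by edgeR). It averaged 7.85 ± 3.27 CPM in saline controls and 27.9 ± 14.2 CPM in LPS controls (SD, n = 3). The microglia markers fell in 4 of 8 in the same comparison, with a median log2 change of -0.93, and their part in the rise of Mmp14 was not tested.

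The 10 members not described one by one, Col10a1, Col13a1, Col22a1, Col2a1, Col4a3, Col4a4, Col7a1, Col8a2, Col9a1 and Col9a2, averaged under 5 CPM in every group and were called in no comparison by edgeR. Col13a1 in astrocytes had 0 to 3 reads per saline library and 1 to 36 per LPS library, and its log2 change of 3.79 (SE 1.22) had an adjusted p of 0.0729 by edgeR and 0.0353 by DESeq2. In astrocytes the better measured chains that did not pass were Col9a3, Col16a1, Col27a1, Col4a5 and Col23a1, a transmembrane collagen, with LPS changes of -0.51, -0.54, -0.21, -0.59 and 0.71 and overlapping groups. Of the remaining chains, Col6a2, Col6a3, Col8a1, Col14a1, Col15a1, Col17a1, Col18a1, Col23a1, Col24a1 and Col26a1 were found in all 12 microglia libraries. Their LPS changes there ran from -0.43 for Col15a1 to 0.50 for Col18a1 and Col6a2, and none passed the test.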

How the data were processed

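The authors deposited 1 table of raw read counts per library, in whole numbers for each Ensembl identifier and without normalisation, as checked on the files. STAR 2.6.0c and HTSeq are the tools named in the submitters' processing notes. The notes name GRCm38 and GRCm39 without their roles, and strand setting, counting mode and annotation release are not given in the sources used here. Rows that name no gene (70.6% to 79.3% of all rows' counts in microglia, 40.0% to 45.7% in astrocytes) were left out. Symbols, classes of gene, coordinates and exon lengths came from GENCODE release M21 on GRCm38.

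Counts were tested with edgeR 4.0.16 (R 4.3.3): filterByExpr by group (minimum count 10, minimum total 15), TMM scaling, a robust quasi-likelihood fit with 1 mean per group over the 12 libraries of a cell type, or over all 24 for comparisons between cell types, and Benjamini-Hochberg adjustment over every gene in the fit. Of 16 comparisons 7 lay within each cell type and 2 between them. DESeq2 1.42.0, RLE factors, other filters, covariates, a replicate block, fits restricted to the compared groups, and leaving out single libraries were alternatives. The model was tested on simulated counts. CPM are counts relative to the TMM-scaled library total, per kb where genes are compared, and SD is over the 3 libraries of a group.

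The members and all lists were chosen with earlier results of these data known. A member was described one by one if it was called in any comparison or averaged at least 5 CPM in a group. Replicates are separate samples per the labels, which do not say that each is a separate animal, so p-values measure the spread between these samples. No pair within a group held the same counts within sampling noise. The design text speaks of sibling pairs without numbering them. Same-numbered LPS astrocyte libraries of both genotypes deviated together (correlations 0.297, 0.157 and 0.354 over 18188 genes), so the numbers were taken to pair those libraries only. The block changed no call of a member between those knockouts and controls.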

Additional observations from a re-analysis of the deposited data

Results flagged for a closer look

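The LPS response differed between astrocytes and microglia, in a direct test of the difference by edgeR, for 3 chains. The difference, astrocytes minus microglia on the log2 scale, was 2.35 for Col4a1, 2.62 for Col5a3 and -1.75 for Col11a2. In astrocytes Col4a1 changed by 2.83 and in microglia by 0.46. The same values were 3.32 and 0.68 for Col5a3 and -1.83 and -0.12 for Col11a2. Cell type goes together with brain region, preparation and the share of reads outside exons, which cannot be told apart here. After LPS 8 of 10 endothelial markers rose in the astrocyte libraries (median log2 change 3.09), beside 4.98% of all genes higher. In microglia 0 of 7 tested endothelial markers passed (median log2 change 0.24), beside 2.19% of all genes higher. Mural markers rose in 3 of 7 tested and vascular fibroblast markers in 1 of 3 in astrocytes. In microglia 0 of either list passed. The part of these cells in the difference was not tested.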

How the results depend on the processing

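No result reversed its direction under any alternative. Counts of called chains moved as follows. Microglia, LPS against saline over both genotypes (2): 1 with a minimum count of 50 and 0 with sex from labels or from transcripts. Microglia controls (0): 1 with the share of reads outside exons as a covariate. Microglia knockouts (0): 1 with DESeq2, with no filter and with that covariate. Astrocyte controls (1): 3 with DESeq2, 5 with no filter, 3 with sex from labels or transcripts, 2 with only the groups compared, 4 with replicate 3 of both LPS genotypes left out, and 2 with the replicate block, which added Col11a2 (-2.20, adjusted p = 0.00648 by edgeR). Astrocyte knockouts (2): 5 with DESeq2, 6 with no filter and 4 without those replicates. The replicate block added Col11a2 there too (adjusted p = 0.0209), and between cell types it took away Col4a6 (adjusted p = 0.0511), although the numbers pair no libraries in these comparisons. Difference in LPS response between cell types (3): 6 with DESeq2, 9 with no filter and 6 without those replicates. The cause was not tested. Sex from transcripts, the covariate of reads outside exons and leaving out replicate 3 of both LPS genotypes were chosen after seeing the data.

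With each library left out, called chains ran from 0 to 2 in microglia and 4 to 5 in astrocytes over both genotypes, 0 to 4 in astrocyte controls, 0 to 3 in astrocyte knockouts, 25 to 30 between cell types, 2 to 5 for the difference in response, and 0 in all other comparisons. Over all alternatives, genes called between LPS and saline ran from 727 to 2232 in astrocytes (1255), 36 to 804 in their controls (169) and 38 to 1027 in their knockouts (283). In microglia they ran from 371 to 1191 (600), 89 to 463 in controls (128) and 112 to 637 in knockouts (254), and for the difference in response from 434 to 1592 (640). Between genotypes, over both injections, they ran from 1 to 40 in microglia (1) and 1 to 9 in astrocytes (1), with 0 collagen chains each time. The replicate block changed the count of called chains in no other comparison by more than 1.5 times.

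Without mitochondrial and ribosomal RNA genes in the totals, summed astrocyte levels rose for that reason: fibrillar chains 155.27, 151.95, 135.54 and 144.77 CPM, basement membrane chains 41.63, 46.70, 96.63 and 141.34 CPM, and other chains 57.01, 68.28, 60.96 and 65.51 CPM in saline controls, saline knockouts, LPS controls and LPS knockouts. With these genes kept, the basement membrane means were 18.2, 20.3, 42.0 and 61.3 CPM in the same order of groups. Without them the LPS libraries spread widely, with 136.6, 89.5 and 63.8 CPM in controls and 244.5, 108.5 and 71.0 CPM in knockouts. In LPS control microglia other chains came to 318.21 CPM on this scaling. Of the 44 members 14 were too low to test in astrocytes, where a missed call says little.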
